A study of Rattus norvegicus with 48 samples.

Results

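The genes of fatty acid and triglyceride synthesis are a set of 32 genes chosen by name: the enzymes that turn citrate and acetate into fatty acids, desaturate and lengthen them, activate them and esterify them to triglyceride, with 2 transcription factors, a lipid droplet coat protein and a lipase. They were found on the array through the gene symbols of its platform annotation, which gave 54 of the 31099 probesets. In all, 31 of the 32 genes had a probeset annotated to them alone (of 14217 such genes on the array), and 29 could be tested over all days. The exception was Tecr, whose probeset was also annotated to a second gene. Each gene was read from its probeset with the highest mean signal.

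The liver makes fatty acids from the acetyl-CoA that ATP citrate lyase (Acly) and acetyl-CoA synthetase (Acss2) supply in the cytosol. Acetyl-CoA carboxylase (Acaca) commits it to synthesis and fatty acid synthase (Fasn) builds palmitate, which stearoyl-CoA desaturase (Scd) and the elongases then modify. Srebf1, whose products include SREBP-1c, and Mlxipl, which encodes ChREBP, are the transcription factors through which insulin and glucose raise these genes after feeding.

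The animals were male Fischer F344 rats, 9 weeks old and fed freely, that received the sodium salt of phenobarbital (PB), a barbiturate that induces drug-metabolizing enzymes of the liver, in the diet at 0, 50, 500 or 1000 ppm for 1, 3, 7 or 14 days. All animals, controls included, were given the same standard diet and were killed by exsanguination under halothane. The amount eaten was not equal, since the paper reports a higher average food intake at both higher doses. It also reports a higher body weight in these groups on the last day. The part of food intake in the values below was not tested. RNA from the left lateral liver lobe of 48 rats, 3 in each of the 16 dose-by-day groups, was hybridized to 1 Affymetrix rat array each. The comparison asks which transcripts follow the dose of PB and how soon.

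For 7 of the 48 arrays the animal number and the title named different groups. They were placed by animal number here, which puts them in the 50 ppm groups of days 3, 7 and 14 and the 500 ppm groups of days 1, 3 and 7. The 0 and 1000 ppm groups hold none of them. Between 13506 and 16378 signals were listed on an array (median 15337). Of 8 hepatocyte markers, 7 had a probeset of their own, and all 7 were listed on every array. Their summed signal had a median of 320976 at 0 ppm and 340539 at 1000 ppm. Of 7 adipocyte markers, 6 had a probeset of their own. Lep was listed on no array, Adipoq and Plin1 on 1, Fabp4 on 2, Cfd on 34 and Cidec on 48. Their summed signal was 1760 to 3656 (median 2549) at 0 ppm and 1316 to 2791 (median 2101) at 1000 ppm. It rested mainly on Cidec and Cfd, and signals that were not listed added nothing to it. Cidec, also a lipid droplet protein, fell over the 4 days (log2 -0.28 ± 0.09, limma adjusted p = 0.0374). Cfd did not pass (-0.19 ± 0.08, adjusted p = 0.137). The summed signal of 6 macrophage markers was lower at 1000 ppm (9724 to 14851, median 10586) than at 0 ppm (10675 to 17454, median 12966), and 2 of the 6, Csf1r (-0.23 ± 0.07) and C1qa (-0.21 ± 0.06), fell over the 4 days. Of 5 bile duct markers, Krt7 and Spp1 were listed on no array and Sox9 had no probeset of its own. Epcam rose at 500 ppm (0.38, limma adjusted p = 0.0114) and at 1000 ppm (0.53 ± 0.10, adjusted p = 2.11e-04). Krt19, listed on 44 arrays, did not pass at 500 ppm (0.02, adjusted p = 0.960) and was not tested over the 4 days at 1000 ppm. The summed signal of these 2, mostly Epcam (mean 660 against 160 for Krt19), had a median of 683 at 0 ppm and 914 at 1000 ppm. Of 7 tested endothelial and stellate markers none passed in limma over the 4 days at 1000 ppm (2 at an unadjusted p under 0.05). The summed signal of all 8 had a median of 11125 at 0 ppm and 10220 at 1000 ppm. On day 1 Lyve1 rose (0.73, limma adjusted p = 0.0349) and no other of these markers passed. Stab2 (0.57, adjusted p = 0.111) and Col1a1 (-0.69, adjusted p = 0.0770) went opposite ways. The array names carry a date-like prefix that sorts them into 6 sets, called runs here although the labels do not say what the prefix records. Each run held every dose but seldom a treated group together with the control of its day. At 1000 ppm no treated array of days 1, 7 and 14 shared a run with a control of its day. On day 3 only 1 run held both. Within days 1, 7 and 14, run and the 1000 ppm dose therefore cannot be told apart, which holds for all values of those days below. Signals come from whole tissue, so that fewer cells of a type and less RNA per cell cannot be told apart.

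The 3 genes shown here are those whose signals moved most closely with that of Fasn from animal to animal within groups and that the promoter table held. The table gave promoters for 26 of the 32 members (32 promoters, since some genes have several starts) and none for Fasn, Acaca, Elovl6, Mcat, Dgat1 and Dgat2. The 250 bases before each annotated start are printed 5′ to 3′ on the strand of the gene, from RefSeq on build GRCr8, with matches to CCAAT and GGGCGG on either strand in capitals. Srebf1 has 2 starts in the table, and its array signal was not assigned to either.
Acly, chr10:85963632-85963881, minus strand: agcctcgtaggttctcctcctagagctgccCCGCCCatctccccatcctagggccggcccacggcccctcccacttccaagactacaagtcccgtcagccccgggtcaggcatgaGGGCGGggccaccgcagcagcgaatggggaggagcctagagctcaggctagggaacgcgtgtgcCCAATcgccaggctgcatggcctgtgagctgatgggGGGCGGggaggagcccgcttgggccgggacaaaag
Acss2, chr3:164464453-164464702, plus strand: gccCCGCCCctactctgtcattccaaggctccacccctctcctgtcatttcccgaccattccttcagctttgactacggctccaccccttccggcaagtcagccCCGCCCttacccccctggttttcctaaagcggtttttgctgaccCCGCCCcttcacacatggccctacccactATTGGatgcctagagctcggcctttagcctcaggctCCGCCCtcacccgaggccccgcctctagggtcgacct
Srebf1, first start, chr10:45529165-45529414, minus strand: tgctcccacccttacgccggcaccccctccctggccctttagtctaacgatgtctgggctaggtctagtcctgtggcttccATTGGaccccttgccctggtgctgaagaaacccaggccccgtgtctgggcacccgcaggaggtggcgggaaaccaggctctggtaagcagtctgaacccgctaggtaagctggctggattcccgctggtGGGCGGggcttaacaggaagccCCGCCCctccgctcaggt
Srebf1, second start, chr10:45519011-45519260, minus strand: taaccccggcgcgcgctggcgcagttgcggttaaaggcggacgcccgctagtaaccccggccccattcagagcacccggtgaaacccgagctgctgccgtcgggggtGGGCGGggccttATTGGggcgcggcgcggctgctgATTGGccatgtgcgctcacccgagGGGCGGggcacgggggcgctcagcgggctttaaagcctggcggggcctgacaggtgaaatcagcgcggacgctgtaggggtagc
The CCAAT box, the core of the sites of NF-Y, began 71 bases before the start of Acly, 73 bases before that of Acss2, 169 bases before the first start of Srebf1, and 131 and 108 bases before its second start. It was present in 18 of the 32 member promoters (56.2%) and in 34% of all 33469 promoters of the same length. GGGCGG, the core of the sites of Sp1, was also in 18 of the 32 (56.2%), against 30.5% of all. The E-box CACGTG was in 2 of the 32 (6.25%), those of Elovl5 and Plin2, against 5.59% of all, and TCACNCCAC, a form of the sterol regulatory element, in 0 of the 32 against 0.974% of all. All motifs were searched on both strands. These are matches of letters within 250 bases and were not tied to binding by any measurement here.

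Averaged over the 4 days, the members that changed were desaturases, an elongase, an acyl-CoA synthetase, enzymes of triglyceride assembly and 2 lipid droplet proteins. None of Slc25a1, Acly, Acss2, Acaca, Fasn and Mcat passed the test at 500 or 1000 ppm, nor did any member at 50 ppm. Over all members, 8 of 29 passed at 1000 ppm (3 higher, 5 lower), 3 of 29 at 500 ppm (2 higher, 1 lower) and 0 of 29 at 50 ppm. A gene passed where its adjusted p in limma, with Benjamini-Hochberg adjustment over all probesets tested, was under 0.05 for the mean over 4 days of the difference from the control of the same day. The share of all probesets that passed was 14.3% at 1000 ppm (1819 of 12680), 8.8% at 500 ppm (1109 of 12599) and 0.149% at 50 ppm (19 of 12782). Whether the members passed more often than other probesets was not tested, and leaving out 1 array took the count at 1000 ppm to as few as 4 of 29 (without control replicate 3 of day 3 or day 7, or treated replicate 2 of day 1). At an unadjusted p under 0.05, 13 members were counted at 1000 ppm, 8 at 500 ppm and 3 at 50 ppm. The median log2 fold change of the members was -0.04 at 1000 ppm and 0.07 at 500 ppm, beside -0.01 and 0.00 over all probesets tested.

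**Figure D1:**
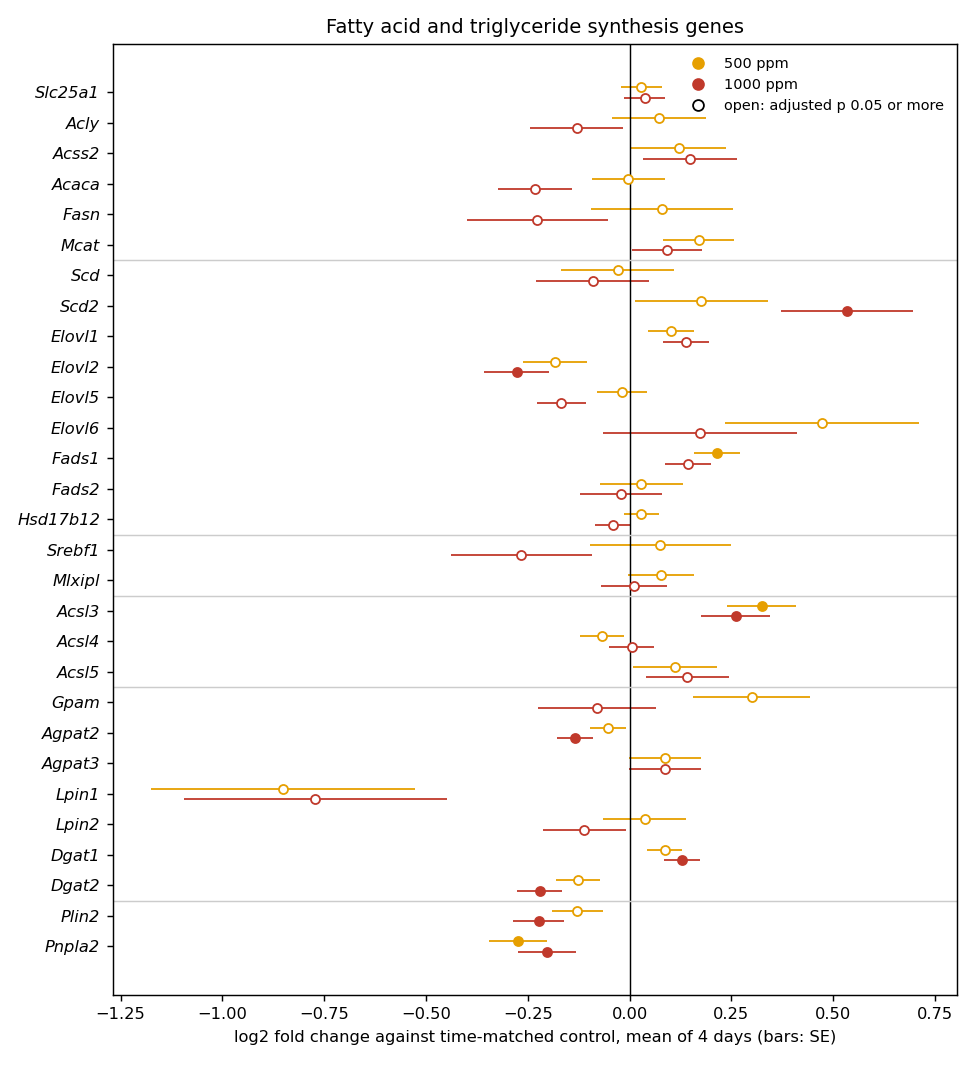
Log2 fold change of each of the 29 tested members against the control of the same day, averaged over the 4 days, at 500 and 1000 ppm PB (horizontal axis, bars are standard errors). Filled points passed at an adjusted p under 0.05, grey lines separate the roles, and Lpin1 has both the lowest values and the widest bars.

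At the head of the pathway, the citrate carrier Slc25a1 had a median of 4114 at 0 ppm and 4250 at 1000 ppm. Acly, which splits citrate to acetyl-CoA, gave signals of 11500 to 16736 (median 14112) on the 12 control arrays, 10394 to 20148 (median 15213) at 500 ppm and 6196 to 21129 (median 13100) at 1000 ppm. The range at 1000 ppm held the whole range of the controls, and the averaged log2 fold change was -0.13 ± 0.11 (SE, adjusted p = 0.520 in limma).

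Acaca, the rate-limiting carboxylase, ranged from 2673 to 4216 (median 3534) at 0 ppm, from 2604 to 5104 (median 3319) at 500 ppm and from 1444 to 4007 (median 3077) at 1000 ppm. Its averaged log2 fold change at 1000 ppm was -0.23 ± 0.09, which did not pass (limma adjusted p = 0.0821). On day 1 the 3 rats at 1000 ppm had 2852, 1949 and 1444 and the control rats 3525, 2842 and 2921, which gave -0.62 ± 0.18 on the log2 scale (limma adjusted p = 0.0542). One of the 3 treated values lay just inside the control range, so the groups overlapped on that day too. Acacb, the mitochondrial isoform of the carboxylase, was listed on 33 of 48 arrays, at 182 to 630, and was not tested over the 4 days.

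Fasn was among the most variable members. It ranged from 5421 to 11769 (median 9459) at 0 ppm, 5287 to 15443 (median 10041) at 50 ppm, 5308 to 17461 (median 8561) at 500 ppm and 2725 to 14216 (median 8039) at 1000 ppm. All 4 ranges overlapped over most of their width. The averaged log2 fold change was 0.08 ± 0.17 at 500 ppm and -0.23 ± 0.17 at 1000 ppm (limma adjusted p = 0.853 and 0.446). On day 1 the 1000 ppm rats had 5536, 4241 and 2725 against 10678, 5429 and 5842 in the controls (log2 fold change -0.80 ± 0.35, limma adjusted p = 0.249), whereas on day 3 they had 9012, 14216 and 11919 against 11769, 7804 and 10462 (0.22 ± 0.35, adjusted p = 0.812). The second Fasn probeset gave -0.42 ± 0.22 at 1000 ppm over the 4 days. Acss2, which makes acetyl-CoA from acetate, had a log2 fold change of 0.15 ± 0.12 at 1000 ppm, and Mcat, of the mitochondrial fatty acid synthase, 0.09 ± 0.09.

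The transcription factors did not pass either. Srebf1 gave 3551 to 7645 (median 6086) at 0 ppm, 3584 to 8651 (median 6509) at 500 ppm and 2051 to 7786 (median 4906) at 1000 ppm. Its averaged log2 fold change at 1000 ppm was -0.27 ± 0.17 (limma adjusted p = 0.354), and most of that came from day 1 (-0.79 ± 0.35, adjusted p = 0.257), when the 1000 ppm rats had 4048, 2712 and 2051 and the controls 7645, 3570 and 4251. Mlxipl was steadier, at 1035 to 1523 (median 1196) at 0 ppm and 852 to 1453 (median 1212) at 1000 ppm, with a log2 fold change of 0.01 ± 0.08 (adjusted p = 0.958).

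**Figure D2:**
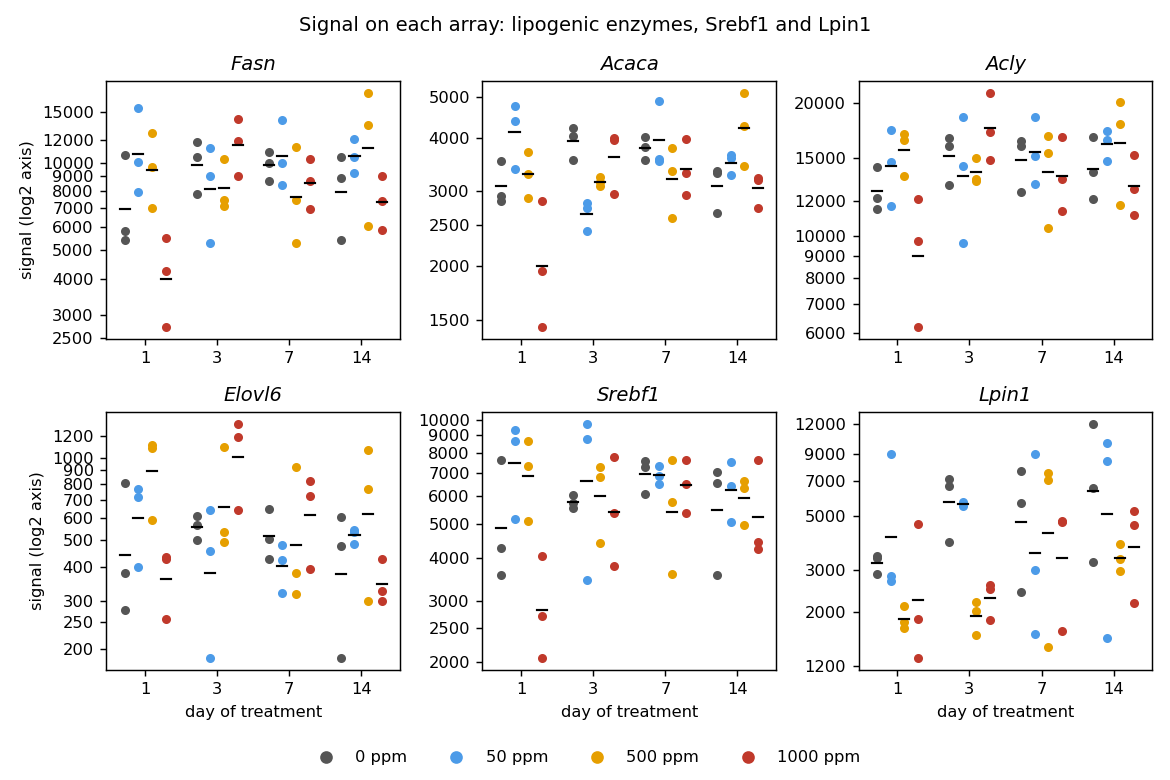
Signal on each of the 48 arrays (vertical log2 axis) by day of treatment and dose for Fasn, Acaca, Acly, Elovl6, Srebf1 and Lpin1; black bars are geometric means of the 3 rats of a group, and Lpin1 was not listed on 1 of the 50 ppm arrays of day 3. Animals of a group are spread widely, as in the 3 control rats of day 14 for Lpin1, at 3239, 6543 and 12048.

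Among the desaturases, the main liver enzyme Scd had 15576 to 31183 (median 25050) at 0 ppm and 17825 to 31391 (median 22733) at 1000 ppm and did not pass (log2 fold change -0.09 ± 0.14, adjusted p = 0.736). Its relative Scd2, best known as the isoform of brain and fetal tissues in the mouse, rose. Scd2 gave 146 to 321 (median 254) at 0 ppm, 200 to 386 (median 273) at 500 ppm and 147 to 1373 (median 361) at 1000 ppm. The averaged rise at 1000 ppm was 1.45-fold (log2 0.53 ± 0.16, limma adjusted p = 0.0225). On day 3 the treated rats had 428, 438 and 1373 and the controls 270, 309 and 221. On day 7 they had 508, 745 and 346 against 260, 186 and 247. All 6 treated values exceeded every control of their day. A second Scd2 probeset, listed on 31 arrays at a mean signal of 95, gave 0.25 ± 0.44 on day 7 (limma adjusted p = 0.870). That probeset could not be tested on day 3 or over the 4 days. On day 1, by contrast, the treated rats had 175, 147 and 167 and the controls 310, 146 and 231, and on day 14 both groups overlapped. The day 3 difference was 1.27 ± 0.33 on the log2 scale (adjusted p = 0.0168), without the rat at 1373 it was 0.71 ± 0.30 (adjusted p = 0.263) and without the control at 221 it was 1.14 ± 0.37 (adjusted p = 0.0885). Scd and Scd2 are close relatives in sequence, and how far their probes bind each other's transcript was not tested. Scd2 did not pass over the 4 days after quantile normalization (adjusted p = 0.0520), nor without that rat, 1 control rat of day 1 or 1 treated rat of day 7.

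Fads1 and Fads2 are the desaturases that make the highly unsaturated fatty acids. Fads1 rose at 500 ppm, from 16519 to 21950 (median 19069) on the control arrays to 19521 to 27393 (median 21665). The log2 fold change was 0.21 ± 0.06 (adjusted p = 0.0131) at 500 ppm and 0.14 ± 0.06 (adjusted p = 0.0906) at 1000 ppm. Fads2 had values of 0.03 ± 0.10 and -0.02 ± 0.10 at the same doses.

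Of the elongases, Elovl2, which lengthens polyunsaturated chains, fell. Its signal was 2201 to 3352 (median 2664) at 0 ppm, 1823 to 3152 (median 2243) at 500 ppm and 1590 to 3481 (median 2034) at 1000 ppm. The averaged level at 1000 ppm was 0.825 of control (log2 -0.28 ± 0.08, adjusted p = 0.0150). On day 3 the treated rats, at 2060, 2008 and 2086, were below the controls at 2642, 2842 and 2201. On day 14 the treated rats had 1764, 1943 and 1590 and the controls 2404, 3352 and 2745, with no overlap (-0.67 ± 0.16, adjusted p = 0.0114). On day 1 the treated rats, at 2752, 2688 and 3481, overlapped the controls at 2268, 3006 and 2686. The day 14 response minus the day 1 response was -0.84 ± 0.22, which did not pass (adjusted p = 0.0540). With run as a block the day 14 difference was -0.67 ± 0.22 (adjusted p = 0.220), and all 3 rats at 1000 ppm on day 14 were in 1 run. Without the control at 3352 or the treated rat at 1590 the adjusted p was 0.0922 and 0.0647.

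Elovl5, a second elongase of polyunsaturated chains, had -0.17 ± 0.06 at 1000 ppm (adjusted p = 0.0598). Elovl6, which lengthens palmitate, spread over 185 to 809 (median 501) at 0 ppm, 298 to 1119 (median 681) at 500 ppm and 256 to 1332 (median 430) at 1000 ppm. Its log2 fold changes of 0.47 ± 0.24 and 0.17 ± 0.24 did not pass (adjusted p = 0.253 and 0.703). On day 3 at 1000 ppm the treated rats, at 645, 1189 and 1332, were all above the controls at 612, 570 and 500, and that difference of 0.85 ± 0.48 did not pass either (adjusted p = 0.372). Elovl1 gave 1259 to 1885 (median 1612) at 0 ppm and 1319 to 1821 (median 1544) at 50 ppm. It gave 1505 to 2119 (median 1733) at 500 ppm and 1495 to 1915 (median 1768) at 1000 ppm. Elovl1 passed the test of any difference among the doses, given below, but not at 1000 ppm against control (0.14 ± 0.06). Hsd17b12 (-0.04 ± 0.04), a reductase of the elongation cycle, did not pass at 1000 ppm.

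Acsl3, a long-chain acyl-CoA synthetase of the endoplasmic reticulum and lipid droplets, rose at both higher doses. It gave 501 to 772 (median 663) at 0 ppm, 584 to 906 (median 830) at 500 ppm and 455 to 928 (median 790) at 1000 ppm. The log2 fold change was 0.32 ± 0.08 at 500 ppm (adjusted p = 0.0109) and 0.26 ± 0.08 at 1000 ppm (adjusted p = 0.0334). On day 7 all treated rats at both doses, at 825, 906 and 819 and at 863, 819 and 928, were above the controls at 717, 673 and 557. One rat at 1000 ppm on day 3, at 455, was below every control. Without the 7 arrays of disputed group the value at 500 ppm did not pass (adjusted p = 0.0566). Acsl4 (0.01 ± 0.05) and Acsl5 (0.14 ± 0.10) did not pass at 1000 ppm.

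In the assembly of triglyceride, the 2 enzymes of the last step went opposite ways. Dgat2, a diacylglycerol acyltransferase, fell at 1000 ppm, from 7038 to 8836 (median 7937) at 0 ppm and 5899 to 7967 (median 7442) at 500 ppm to 6261 to 7825 (median 6716) at 1000 ppm. At 1000 ppm it was 0.858 of control (log2 -0.22 ± 0.05, adjusted p = 0.00455). The treated rats were below every control on day 1 (6696, 6261 and 6447 against 8498, 7038 and 8687), on day 3 (6326, 7220 and 6715 against 7856, 8517 and 8836) and on day 14 (6811, 7225 and 7340 against 7533, 7531 and 8308), and overlapped them on day 7. A second Dgat2 probeset fell as well (-0.16 ± 0.05, adjusted p = 0.0392). Dgat1 gave 1040 to 1220 (median 1136) at 0 ppm and 1106 to 1464 (median 1222) at 1000 ppm. It rose by 1.09-fold (log2 0.13 ± 0.04, adjusted p = 0.0417), a small difference that did not pass after quantile normalization (adjusted p = 0.152).

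Agpat2, which acylates lysophosphatidic acid, was 2602 to 3049 (median 2874) at 0 ppm and 2195 to 2887 (median 2635) at 1000 ppm, and fell to 0.912 of control (log2 -0.13 ± 0.04, adjusted p = 0.0374). With run as a block it did not pass (adjusted p = 0.0516). Agpat3 (0.09 ± 0.09) and Lpin2 (-0.11 ± 0.10) did not pass, and the probeset read for Agpat1 was listed on 3 arrays.

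Lpin1, the phosphatidate phosphatase whose product also acts as a coactivator in the fasted liver, had the lowest log2 fold changes of all members, -0.85 ± 0.32 at 500 ppm and -0.77 ± 0.32 at 1000 ppm. Neither passed (adjusted p = 0.101 and 0.112). Its signal ran from 2434 to 12048 (median 4797) at 0 ppm, 1436 to 7530 (median 2168) at 500 ppm and 1294 to 5255 (median 2553) at 1000 ppm. On day 3 all rats at 1000 ppm (1866, 2595 and 2510) were below all controls (3898, 7119 and 6697), and on day 7 the treated rats (1678, 4790 and 4718) and the controls (2434, 5696 and 7678) overlapped. Its spread between rats of a group, 0.83 on the log2 scale, was larger than that of 99.9% of all probesets tested at 1000 ppm. A second Lpin1 probeset gave -0.91 ± 0.37 and -0.85 ± 0.37 at the 2 doses.

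Gpam, the mitochondrial acyltransferase that opens the pathway, passed in 1 comparison, at 50 ppm on day 7. The treated rats had 454, 426 and 372 and the controls 1148, 991 and 848 (log2 fold change -1.25 ± 0.29, adjusted p = 0.00921). No value overlapped. Of these 3 treated arrays 2 belong to those of disputed group. With groups taken from the titles the difference was -0.76 ± 0.36 (adjusted p = 0.504), and without the disputed arrays, which leaves 1 treated rat assumed to vary like the other groups, it was -1.22 ± 0.40 (adjusted p = 0.330). At 1000 ppm over the 4 days Gpam had -0.08 ± 0.14. A second Gpam probeset also passed at 50 ppm on day 7 (-1.43 ± 0.31, adjusted p = 0.00591), as did second probesets of Acaca (-0.98 ± 0.26) and Elovl5 (-0.96 ± 0.20). The probesets read for these 2 genes gave 0.06 ± 0.18 and 0.06 ± 0.12 there, so the probesets of a gene disagreed. Over all probesets, 444 were lower and 98 higher at 50 ppm on day 7.

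On the lipid droplet, the coat protein perilipin 2 (Plin2) and the triglyceride lipase Pnpla2 both fell. Plin2 was 8495 to 13436 (median 11604) at 0 ppm, 8470 to 11597 (median 10568) at 500 ppm and 8104 to 12747 (median 9762) at 1000 ppm. The averaged level at 1000 ppm was 0.857 of control (log2 -0.22 ± 0.06, adjusted p = 0.0131). On day 3 the treated rats had 9792, 10288 and 8561 and the controls 13436, 12496 and 12568, with no overlap (-0.43 ± 0.13, adjusted p = 0.0410), a call that was lost without any 1 of the controls of that day (adjusted p = 0.0856 to 0.133) or without the treated rat at 9792 or at 8561 (0.0633 and 0.218). Day 7 was also without overlap, whereas on days 1 and 14 the groups overlapped. A second Plin2 probeset fell as well over the 4 days (-0.54 ± 0.12, adjusted p = 0.00158). Pnpla2 was 627 to 894 (median 762) at 0 ppm, 532 to 758 (median 624) at 500 ppm and 546 to 923 (median 632) at 1000 ppm. It fell to 0.827 of control at 500 ppm (log2 -0.27 ± 0.07, adjusted p = 0.0102) and 0.869 at 1000 ppm (-0.20 ± 0.07, adjusted p = 0.0480). At 1000 ppm it did not pass with run as a block, with groups by title or without the disputed arrays. The part of the lower macrophage markers in these falls was not tested, nor that of the adipocyte marker sum, which rested mainly on Cidec and Cfd.

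**Figure D3:**
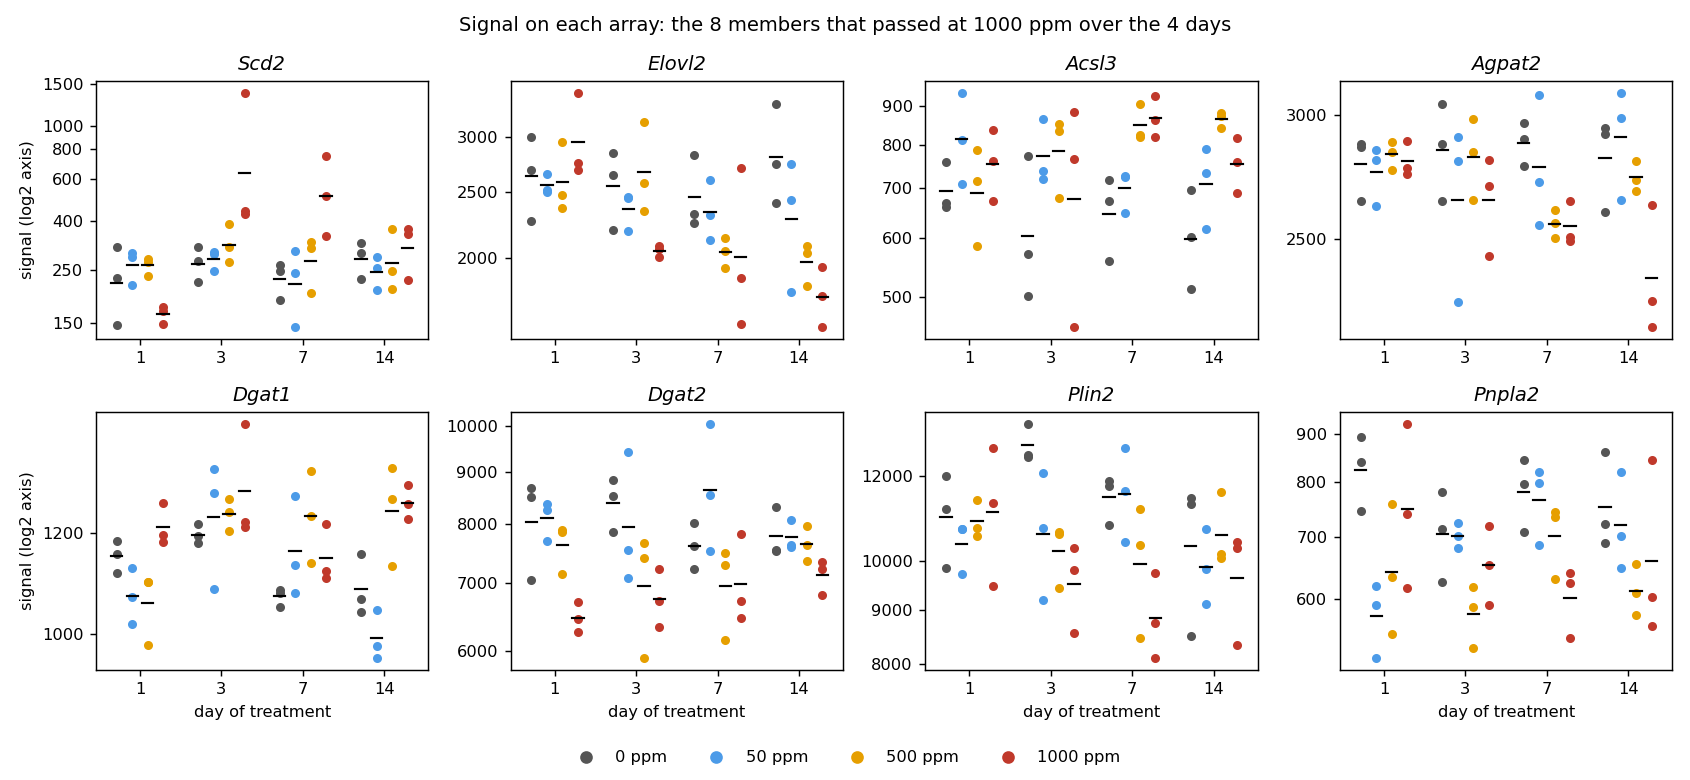
Signal on each of the 48 arrays (vertical log2 axis, a different range in each panel) by day and dose for the 8 members that passed at 1000 ppm over the 4 days; black bars are geometric means of the 3 rats of a group. Scd2 stands above control at 1000 ppm on days 3 and 7, and Dgat2 below it on days 1, 3 and 14.

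A test of any difference among the 4 doses over the 4 days was passed by 6 of 29 members, Elovl1, Fads1, Acsl3, Dgat1, Dgat2 and Pnpla2, beside 14.3% of all probesets. Single days gave few calls. At 1000 ppm 0 of 29 members passed on day 1 (8 at an unadjusted p under 0.05), 2 of 30 on day 3 (Scd2 and Plin2), 0 of 30 on day 7 (4 unadjusted) and 1 of 30 on day 14 (Elovl2), where 2.63%, 4.14%, 1.94% and 3.62% of all probesets passed. At 500 ppm no member passed on day 1, 3, 7 or 14 in limma (5, 7, 5 and 8 unadjusted), against 0.885%, 1.26%, 3.67% and 1.62% of all probesets. At 50 ppm 1 of 30 passed on day 7 (Gpam) and none on days 1, 3 and 14 (4, 4 and 0 unadjusted), against 3.8% of all probesets on day 7 and 0.0142%, 0.102% and 0.112% on the other days.

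Between the 2 higher doses no member passed. In limma 0 of 29 members differed between 1000 and 500 ppm (4 at an unadjusted p under 0.05, Scd2 with 0.36 ± 0.16 and Acaca with -0.23 ± 0.09 among them), and 0% of all 12396 probesets did (725 unadjusted). The response to 1000 ppm differed between day 14 and day 1 for 0 of 29 members (5 unadjusted) and 1.15% of all probesets. Added after the values had been seen, the same comparison between day 3 and day 1 was passed by 0 of 29 members (8 unadjusted) and 0.0601% of all probesets, with the largest difference in Scd2 (1.69 ± 0.46, adjusted p = 0.137). In control liver 0 of 29 members differed between day 14 and day 1 (2 unadjusted), beside 0.178% of all probesets. All doses shared the same 12 control arrays.

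The lipogenic genes moved together from rat to rat. After the mean of each dose-by-day group was subtracted, animals with more Fasn signal than their 2 group mates also had more of Acly (r = 0.89, rho = 0.89), Elovl6 (r = 0.89, rho = 0.88), Acaca (r = 0.79, rho = 0.80), Srebf1 (r = 0.76, rho = 0.77) and Scd (r = 0.67, rho = 0.69) over the 48 arrays. In permutations of Fasn within groups, p was 1e-05, the smallest that 100000 permutations can give, for all of these but Scd (3e-05 for r and 2e-05 for rho), and no value adjusted over the 5 relations exceeded 3e-05. Acly, Elovl6 and Acaca each lay on the same side of their group mean as Fasn on 41 of 48 arrays, Srebf1 on 38 and Scd on 37. Without the 2 arrays farthest from the median of Fasn, r was 0.89, 0.89, 0.79, 0.75 and 0.68 in the order given.

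Within the 6 runs, of 7 to 9 arrays each, r ran from 0.73 to 0.96 for Acly, 0.87 to 0.95 for Elovl6 and 0.72 to 0.93 for Acaca. It ran from 0.48 to 0.95 for Srebf1 and from 0.17 to 0.83 for Scd, the lowest being run 6. Every run thus gave the same sign, with little left of the relation for Scd in 1 of them.

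**Figure D4:**
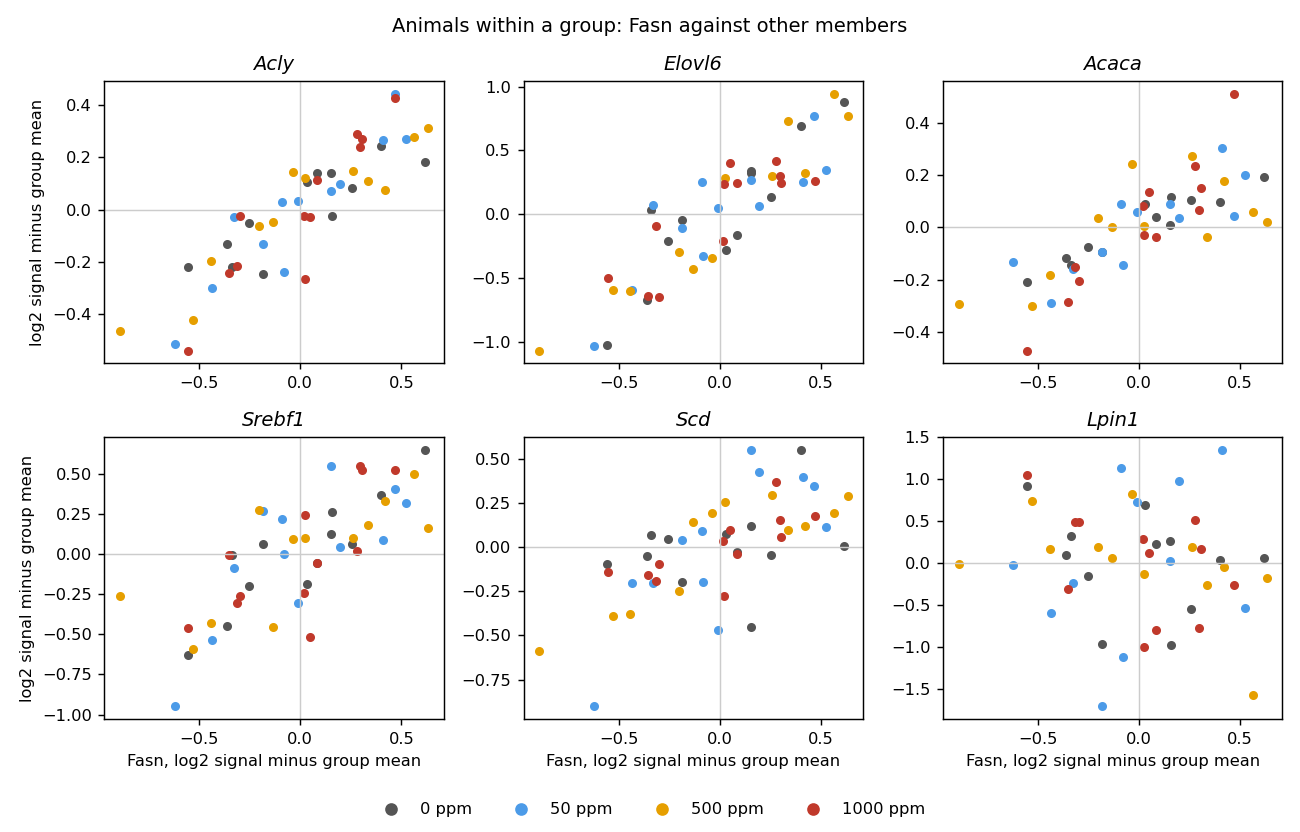
Deviation of each rat from the mean of its group of 3 (log2 signal) for Fasn on the horizontal axis and 6 other members on the vertical axes, 1 point per array, coloured by dose. Acly, Elovl6, Acaca, Srebf1 and Scd follow Fasn with r from 0.67 to 0.89, whereas Lpin1 (r = -0.18 over 47 arrays) does not.

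As a description, with no test, the other members fell into a gradient. Acss2 (r with Fasn 0.79), Gpam (0.65), Acsl5 (0.54), Mlxipl (0.52) and Plin2 (0.50) were nearest, and Elovl2 (0.00), Elovl5 (-0.04), Pnpla2 (-0.25) and Agpat3 (-0.29) were at the other end. All these values share the arrays and their scaling. Of the genes outside the set, Thrsp (0.81), a lipogenic protein, Pnpla3 (0.79) and the glycolytic enzyme Pklr (0.73) followed Fasn, and the fatty acid oxidation gene Cpt1a (-0.55) ran against it. Clock genes went both ways, with Per2 (0.68 over 35 arrays), Cry1 (0.45) and Npas2 (0.45) on one side and Nr1d1 (-0.46 over 39 arrays) and Nr1d2 (-0.56) on the other. Lpin1 had its highest values with Nr0b2 (0.67) and the gluconeogenic gene Pck1 (0.55).

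The spread between rats of a group separated the members as well. It was 0.44 on the log2 scale for both Fasn and Srebf1, 0.61 for Elovl6 and 0.83 for Lpin1, which placed these 4 above 97.6% of all probesets tested. It was 0.09 for Dgat1, 0.10 for Agpat2 and 0.13 for Dgat2, at or below the 16.7th percentile.

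Outside the 32 genes, 5 of 17 tested regulators and targets of the lipogenic factors passed at 1000 ppm over the 4 days, 2 higher and 3 lower, beside the 14.3% of all probesets. Me1, malic enzyme, a source of NADPH for fatty acid synthesis, rose by 0.84 ± 0.12 on the log2 scale and Usf2, a transcription factor, by 0.34 ± 0.10. Insig1, which retains SREBP in the endoplasmic reticulum, fell to a log2 value of -0.46 ± 0.13, Pklr, the liver pyruvate kinase, at -0.43 ± 0.12 and Khk, ketohexokinase, at -0.21 ± 0.05. Of 8 other elongation and mitochondrial fatty acid synthesis genes 1 passed, Mecr (0.21 ± 0.06). Of 17 other triglyceride, droplet and VLDL genes 8 passed, 4 higher and 4 lower. Among them were Cidea (0.59 ± 0.20), Fitm2 (0.40 ± 0.08) and Plin3 (0.28 ± 0.07), droplet proteins that rose, Cidec, a droplet protein that fell (-0.28 ± 0.09), the monoacylglycerol lipase Mgll (0.33 ± 0.08), G0s2, an inhibitor of Pnpla2 (-0.42 ± 0.13), and the acyltransferase Gpat4 (-0.30 ± 0.08). Of 4 tested fasting and feeding genes Igfbp1, which insulin represses, fell to a log2 value of -1.49 ± 0.29 and Pck1 to -0.25 ± 0.09. None of 8 tested clock genes passed in limma (1 at an unadjusted p under 0.05).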

How the data were processed

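The liver arrays were scanned and summarized by the authors with MAS 5.0, and the deposited values are signal intensities on a linear scale. The methods state that array means were scaled to 500, while listed signals averaged 1545 to 1983 per array, so the scale is not settled. Entries without a value were treated as missing, and what they stand for is not given in the sources used here. A second deposited table holds, for a subset of the probesets, the same signals divided by their median and was not used. Probesets that reached 90 on 3 or more arrays entered the fit (18073, without 57 controls). Log2 signals were fitted with a mean for each of the 16 groups and the moderated statistics of limma 3.58.1 (R 4.3.3), with missing values left out per probeset, and a contrast was tested where every group in it had at least 2 signals (1 where leaving out arrays left a group with 1). The fit was checked against the standard functions of limma. The fit was also run on simulated data for 1000 ppm over the 4 days (12680 probesets). The noise was drawn independently for each probeset, without differences between runs, and 100 probesets were changed by each amount. There it found 86% of changes of 0.5 and 99% of changes of 1 on the log2 scale, and 5.13% of its calls were false. Smaller changes, such as most members that passed had, were not simulated. Arrays were grouped by animal number. The rats are separate animals, 3 per group. The p-values rest on the spread within groups, pooled over all 16 groups and moderated across probesets, and not on that of the compared groups alone. All 32 members are accounted for, and 7 lipogenic genes and every member that passed at 500 or 1000 ppm are given with signals. From other lists at most 6 that passed are named, with Cidec, also an adipocyte marker, named besides. Members and lists were chosen with earlier results of these data known. Alternatives were quantile normalization, run or title replicate number as a block, groups by title, leaving out the disputed arrays or each array, no filter, complete probesets, any probeset of a gene, and the methods' analysis of variance.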

Additional observations from a re-analysis of the deposited data

Results flagged for a closer look

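Some members stood above every control on one day and below every control on another at the same dose. Except for Hsd17b12, the differences between those days were not tested. The share of all probesets that stood above on one day and below on another was not counted. The list is therefore not a result about these members. The difference in log2 fold change was 0.76 for Acaca at 500 ppm (day 14 above, day 3 below), 0.34 for Hsd17b12 at 1000 ppm (day 1 above, day 3 below), 1.74 for Gpam at 50 ppm (day 14 above, day 7 below), 0.93 for Lpin2 at 50 ppm and 0.85 at 500 ppm (day 14 above, day 3 below), and 0.33 for Dgat1 at 500 ppm (day 7 above, day 1 below). For Hsd17b12 the comparison of day 3 with day 1, made after the values were seen, did not pass (limma adjusted p = 0.270). Groups of 3 were too small for a search for outlying rats.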

How the results depend on the processing

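Arrays give no depth, and 3 rats per group and the scaling of the arrays limit the precision. At 1000 ppm over the 4 days the count of members was 6 to 9 under every alternative fitted to all arrays and 7 without those of disputed group, and at 500 ppm it was 2 to 3. The count at 1000 ppm on day 14 was 3 with quantile normalization and 0 with run as a block, and the day 14 against day 1 comparison gave 2 with quantile normalization and 2 on complete probesets. The Gpam call at 50 ppm on day 7 was 0 with run as a block, with groups by title and without the disputed arrays, and counting any probeset gave 3. Complete probesets gave 1 on day 1 and 1 on day 7 at 1000 ppm, and any probeset gave 1 on day 1. The methods' analysis of variance, on the 6236 probesets with a 1.5-fold change, gave 2 of 9 members with a dose effect. These probesets were kept for a change from control in the same values that were then tested. The share of them that passed is not given here, so this count is not a result about the members and cannot be compared with the main one. The cause of these differences was not tested, beyond the smaller set of genes in the last.

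With the replicate number of the titles as a block, the count at 1000 ppm over the 4 days was 9 and the day 14 against day 1 comparison gave 1, with no other count past 1.5 times. The numbers do not pair the rats: the correlation of deviations between same-numbered treated and control rats ran from -0.20 to 0.30 (median 0.05) and exceeded 0.1 in 7 of 36 pairs.

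Leaving out 1 array at a time gave 4 to 8 members at 1000 ppm over the 4 days and 3 to 3 at 500 ppm. It gave 3 to 8 for the dose effect, 0 to 1 at 50 ppm on day 7 and 0 to 1 at 500 ppm on day 14. At 1000 ppm it gave 0 to 1 on days 1 and 7 and 0 to 2 on days 3 and 14, and 0 to 2 for day 14 against day 1. The dose effect count of 3 came without control replicate 2 of day 3. The lowest counts at 1000 ppm over the 4 days, 4 members, came without control replicate 3 of day 3, control replicate 3 of day 7 or treated replicate 2 of day 1. A count of 5 came without control replicates 2 and 3 of day 1, 2 of day 3 or 3 of day 14, or treated replicates 2 and 3 of day 7 or 2 of day 14. Dgat2, Plin2 and Elovl2 at 1000 ppm and Fads1, Acsl3 and Pnpla2 at 500 ppm passed without any 1 of the 48 arrays.

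Sign changes occurred in members that did not pass: Scd at 500 ppm was 0.0247 without the disputed arrays, Fads2 at 500 ppm -0.0021 with groups by title, and with quantile normalization Hsd17b12 at 500 ppm was -0.0074, Mlxipl at 1000 ppm -0.0104 and Acsl4 at 1000 ppm -0.0516. Leaving out 1 array also changed the sign of values near 0. At 500 ppm these ran from -0.0371 to 0.0348 for Acaca, -0.0856 to 0.0443 for Scd, -0.0568 to 0.0011 for Elovl5, -0.0177 to 0.0696 for Fads2 and -0.0023 to 0.157 for Srebf1, and at 1000 ppm from -0.0659 to 0.0121 for Fads2, -0.0171 to 0.0533 for Mlxipl and -0.0159 to 0.0246 for Acsl4.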
